A study of Mus musculus with 14 samples.

Results

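The mitosis and spindle genes examined here are 55 genes whose proteins condense and segregate chromosomes, build the spindle and divide the cell. They were chosen by their symbols, with earlier results of these data known. All 55 were found among the 46904 genes of the expression table. Poly(A) RNA of brain hemispheres was sequenced from Cort+/+ and Cort-/- mice, the latter lacking the neuropeptide cortistatin. The study asked how cortistatin deficiency alters the response of the brain to ischemic stroke. All mice were males on a C57BL/6J background, 12 weeks old, and underwent a middle cerebral artery occlusion (MCAO) of 20 min, with tissue taken after 48 h. The contralateral (CL) hemisphere of the operated mice served as the non-ischemic control, so no library came from an unoperated animal. Cort+/+ mice gave 3 CL libraries (replicates 1, 2 and 3) and 3 MCAO libraries (replicates 2, 3 and 4), and Cort-/- mice gave 3 CL libraries (replicates 1 to 3) and 5 MCAO libraries (replicates 1 to 5). Whether CL and MCAO libraries with 1 number came from the same mouse is not given in the sources used here. No Cort+/+ MCAO library was numbered 1 or 5. For MCAO the paper describes more replicates than the Cort+/+ libraries available. It adds that, for comparisons with large variability, only replicates that grouped clearly were kept. The sources do not state whether Cort+/+ MCAO replicates were left out on that basis. The spread of that group and the comparisons resting on it may depend on such a choice, which was not tested.

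Cells copy their DNA in S phase and pass through G2 into mitosis, where chromosomes are compacted, attached by their kinetochores to spindle microtubules, held until the spindle assembly checkpoint is satisfied and then pulled apart. Most of the transcripts needed for this are made together late in the cell cycle and are kept low in resting cells by the DREAM complex, which acts through the cell cycle genes homology region (CHR), whereas NF-Y at CCAAT boxes and the MuvB complex with B-Myb and FOXM1 drive them in cycling cells. Most cells of the adult brain do not divide, but microglia, astrocytes and vascular cells are known to re-enter the cycle around an ischemic lesion, and immune cells enter from blood.

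Promoter sequences are shown first because the CHR and the CCAAT box are the sequence features that these genes are known to share. RefSeq windows of 250 bases before and 50 bases after the transcription start were held for 47 of the 55 genes (mouse build GRCm38.p6), and Pbk, Ccna2, Aurkb, Kif20a, Spc24, Tpx2, Dlgap5 and Smc4 had no entry. Windows are given for Mki67, Top2a and Ube2c, the 3 genes of largest difference between hemispheres among those named whose window held both motifs. They are also given for the 2 with the smallest (Mad2l1 and Anln), for which no motif was required. The 2 sets therefore cannot be compared for their motifs. Ccnb1, the gene of next largest difference with a window, held CCAAT but no CHR. Capitals mark a CHR (TTTGAA or TTCGAA) or a CCAAT, each on either strand, so that TTCAAA and ATTGG are the same motifs read on the other strand.
Mki67: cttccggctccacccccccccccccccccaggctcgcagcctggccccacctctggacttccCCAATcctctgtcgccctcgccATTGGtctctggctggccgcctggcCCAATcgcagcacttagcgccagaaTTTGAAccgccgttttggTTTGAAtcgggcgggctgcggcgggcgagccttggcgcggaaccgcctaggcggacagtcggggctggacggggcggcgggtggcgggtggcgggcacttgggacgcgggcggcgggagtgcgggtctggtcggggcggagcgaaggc
Top2a: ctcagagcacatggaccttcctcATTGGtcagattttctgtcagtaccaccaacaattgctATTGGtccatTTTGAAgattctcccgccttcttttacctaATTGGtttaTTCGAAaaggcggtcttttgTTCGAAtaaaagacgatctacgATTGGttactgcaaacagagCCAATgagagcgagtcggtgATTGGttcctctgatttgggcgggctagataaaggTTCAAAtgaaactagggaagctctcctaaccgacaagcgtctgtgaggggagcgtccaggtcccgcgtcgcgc
Ube2c: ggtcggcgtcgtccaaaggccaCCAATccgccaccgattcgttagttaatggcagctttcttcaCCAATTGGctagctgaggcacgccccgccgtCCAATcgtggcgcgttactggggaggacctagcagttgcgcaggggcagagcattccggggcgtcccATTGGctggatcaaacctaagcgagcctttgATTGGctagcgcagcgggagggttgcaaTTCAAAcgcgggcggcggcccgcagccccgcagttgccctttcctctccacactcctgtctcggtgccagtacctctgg
Mad2l1: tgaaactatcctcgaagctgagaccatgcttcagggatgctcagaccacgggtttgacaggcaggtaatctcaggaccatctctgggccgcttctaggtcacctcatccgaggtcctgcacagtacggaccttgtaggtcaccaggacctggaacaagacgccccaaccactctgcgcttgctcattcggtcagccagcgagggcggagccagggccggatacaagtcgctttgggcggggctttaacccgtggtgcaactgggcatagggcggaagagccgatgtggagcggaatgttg
Anln: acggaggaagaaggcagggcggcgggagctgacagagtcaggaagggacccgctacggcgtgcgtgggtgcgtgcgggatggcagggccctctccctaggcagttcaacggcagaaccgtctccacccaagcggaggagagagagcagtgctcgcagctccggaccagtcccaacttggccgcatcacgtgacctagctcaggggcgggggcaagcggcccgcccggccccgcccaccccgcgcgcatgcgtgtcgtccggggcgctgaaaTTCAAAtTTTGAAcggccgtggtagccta
The window of Mki67 (chr7:135716330-135716629, minus strand) held 2 CHR and 3 CCAAT matches, that of Top2a (chr11:99024140-99024439, minus strand) 4 and 6, and that of Ube2c (chr2:164769679-164769978, plus strand) 1 and 6. In Mad2l1 (chr6:66534971-66535270, plus strand) neither motif was found, and Anln (chr9:22389157-22389456, minus strand) held 2 CHR matches, both downstream of the start, and no CCAAT.

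A CHR was present in 37 of the 47 windows (78.7%), against 21.7% of the 27025 genes with a window. CCAAT was present in 34 (72.3%, against 41.1%), and both motifs in 30 (63.8%, against 8.61%). The E2F site (TTTCCCGC, TTTGGCGC or TTTCGCGC on either strand), which is known from S-phase genes, was found in 3 windows, those of Cdk1, Kif15 and Ncapg (6.38%, against 2.12%). In the shorter window of 150 bases before to 50 after the start, CHR and CCAAT stood together in 29 genes (61.7%, against 4.12%). The CHR closest to the start lay at a median of position 6 (range −103 to 41, where 1 is the first transcribed base), and the closest CCAAT at −22 (range −176 to 14). Matches starting within the first 25 transcribed bases were the most frequent for the CHR, in 15 of 47 windows (31.9%, against 1.68% of all genes). CCAAT matches were most frequent in the 2 bins that begin at −75 and at −25, with 17 and 16 windows. These are letter matches and not measured binding sites.

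**Figure D1:**
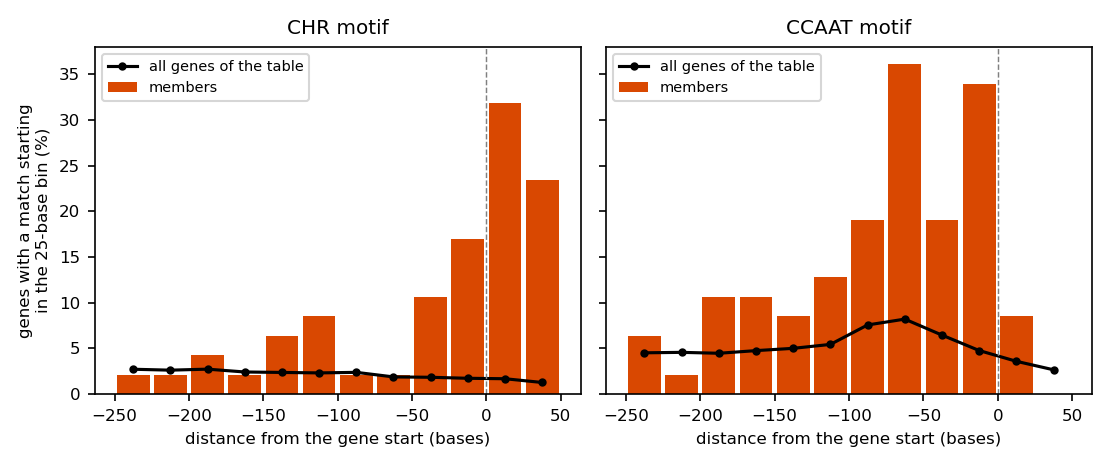
Share of promoter windows (percent, vertical axis) with a CHR match (left) or a CCAAT match (right) starting in each 25-base bin of distance from the transcription start (bases, horizontal axis), with bars for the 47 mitosis and spindle genes with a window (the members in the legend) and a line for all 27025 genes with one. CHR matches of the mitosis and spindle genes gather just after the start, with 15 windows in the first bin, and CCAAT matches upstream of it.

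Library facts come before the results. The authors' RPKM values, which are read counts normalized for the length of the gene and the depth of the library, could be turned back into whole reads, which gave 25989673 to 43032291 reads on genes per library. Cort held 64 to 139 reads in the Cort+/+ libraries and at most 4 in the Cort-/- libraries, as the labels state. Median changes of all 46102 genes tested were 0.00 on the log2 scale in both genotypes. Of the markers of neurons, astrocytes, oligodendrocytes and microglia, each had reads in every library. MCAO replicate 4 of the Cort+/+ mice stood apart: it had the lowest of the 3 MCAO values in 55 of the 55 mitosis and spindle genes, against 32.6% of the 24951 genes whose mean reached 0.1 RPKM. In Cort-/- mice, MCAO replicate 3, which had the fewest reads of all libraries, was the lowest of 5 in 46 of the 55 (25.4% of those genes), and MCAO replicate 2 in the other 9.

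In non-ischemic tissue most of these transcripts were scarce. The mean in CL hemispheres of Cort+/+ mice was under 0.2 RPKM for 27 genes and under 1 RPKM for 50 of the 55. All 55 nonetheless had reads in enough libraries to be tested, and the single value of 0 reads was that of Cdca5 in CL replicate 2 of the Cort+/+ mice. The 4 genes above 1 RPKM in every CL library were Anln, Racgap1, Smc2 and Smc4. After MCAO, every MCAO library was higher than every CL library for 51 genes in Cort+/+ mice (5.73% of all genes tested did so) and for 50 in Cort-/- mice (4.85% of all genes), with 48 in both and 2, Melk and Anln, in neither. Median log2FC values over the 55 genes were 1.05 in Cort+/+ mice, 1.28 in Cort-/- mice and 1.19 in the mean of the genotypes. Summed over the 54 genes other than Anln, Cort+/+ mice held 21.2 ± 1.84 RPKM in CL libraries and 48.3 ± 13.5 RPKM in MCAO libraries (SD, n = 3 each). The same sum in Cort-/- mice was 22.0 ± 2.49 RPKM in CL (SD, n = 3) and 59.4 ± 13.4 RPKM in MCAO libraries (SD, n = 5). With Anln included, mean sums in CL and MCAO libraries were 34.0 and 60.2 RPKM in Cort+/+ mice. In Cort-/- mice they were 34.0 and 71.5 RPKM, so the relative rise was smaller with Anln in both genotypes. In bulk tissue, more dividing cells and more of these transcripts per cell cannot be told apart.

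**Figure D2:**
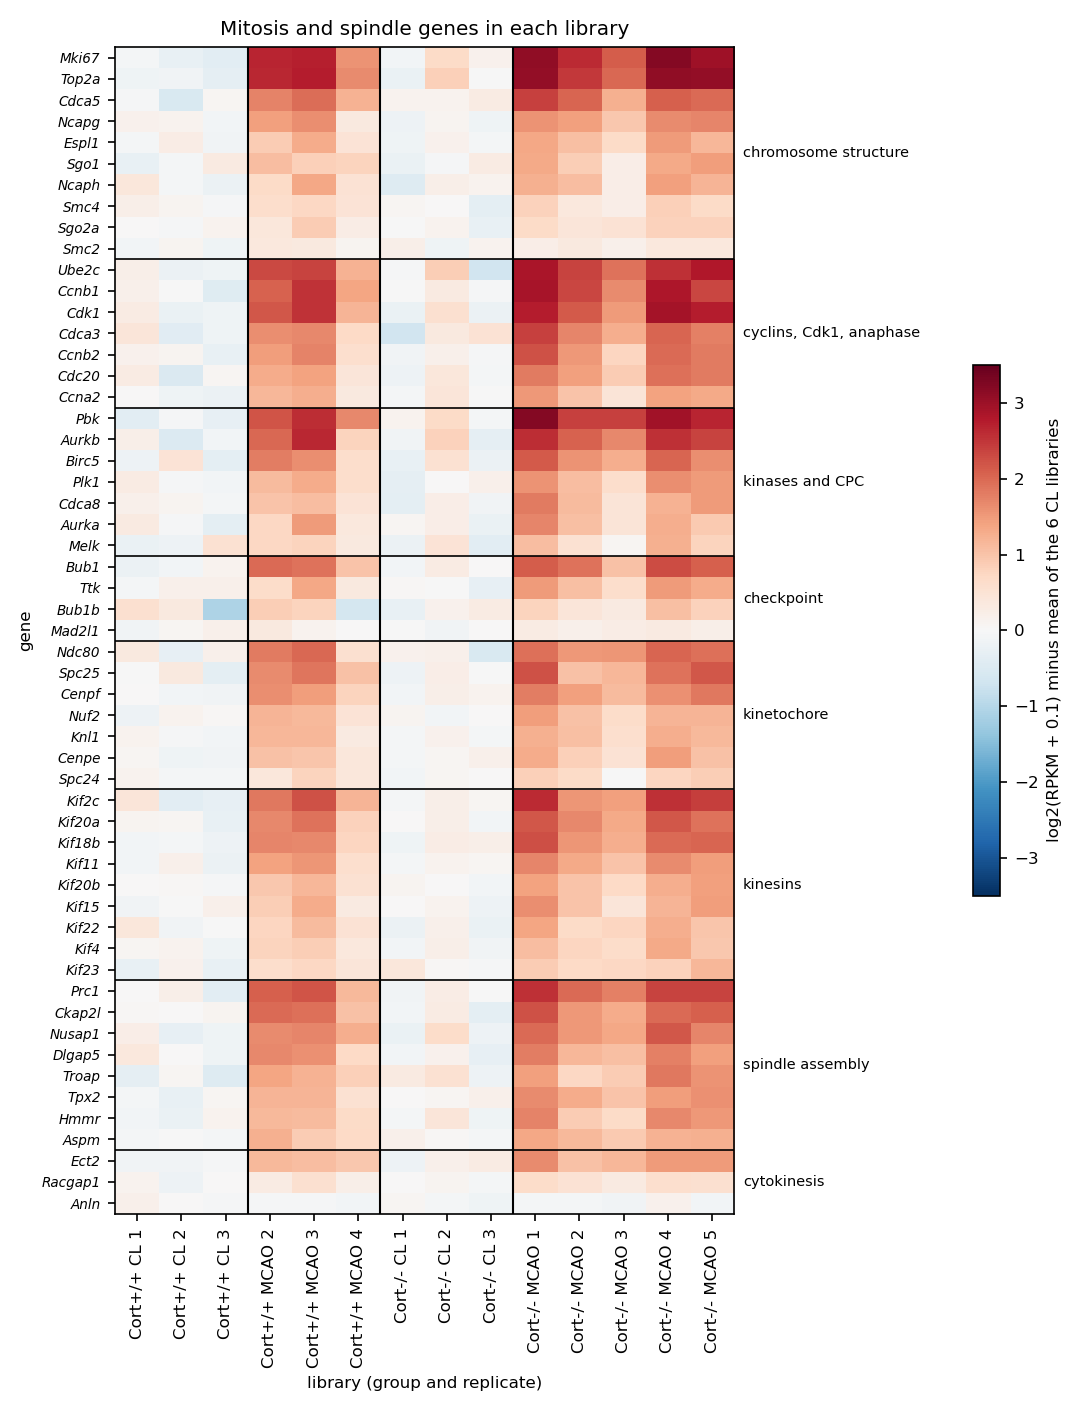
Color shows the difference of each of the 55 genes (vertical axis, grouped by role, with the chromosomal passenger complex as CPC) from its mean over the 6 CL libraries, on the scale of log2(RPKM + 0.1), in each of the 14 libraries (horizontal axis), red for higher and blue for lower. MCAO libraries are redder across most genes, with median differences from 0.58 in Cort+/+ MCAO replicate 4 to 1.66 in Cort-/- MCAO replicate 1, whereas medians of the CL libraries lie between −0.12 and 0.19.

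Differences were tested with limma on log2(RPKM + 0.1) in 1 model of the 4 groups, and a gene was called at a Benjamini-Hochberg adjusted p under 0.05 over all 46102 genes tested. In the mean of the genotypes, 49 of the 55 genes rose after MCAO and none fell, where 2.52% of all genes tested rose (4.81% of the 18219 genes within the same range of mean RPKM). In Cort-/- mice 41 rose, where 1.34% of all genes did so (2.71% of those in the same range). In Cort+/+ mice 2 rose, Mki67 and Pbk, out of 4 such genes in all (0.00868%), although 51 of the 55 had an unadjusted p under 0.05. The few calls do not measure the size of the response. The count test of the study, at a false discovery rate under 0.05, called far more genes higher after MCAO in each genotype. It listed Ncapg, Ccnb2, Cdca5 and Troap among those higher in both. Of the 55 genes, 36 had a log2FC of at least 1 in the mean of the genotypes and 8 of at least 2. Both counts within a genotype depended on single libraries: without Cort+/+ MCAO replicate 4 the count in Cort+/+ mice was 20, without Cort-/- MCAO replicate 3 it was 6, and it was 1 without each of 9 others (Cort+/+ CL replicates 2 and 3 and MCAO replicates 2 and 3, Cort-/- CL replicates 1 and 3 and MCAO replicates 1, 2 and 5). In Cort-/- mice the count was 10, 26 and 12 without CL replicate 1, 2 or 3, 23 without MCAO replicate 1 or 4 and 48 without MCAO replicate 3, whereas for the mean of the genotypes it was 44 to 51 with 1 library left out. When only the groups compared were fitted, with no spread shared from the other genotype, limma called 8 genes in Cort-/- mice and 0 in Cort+/+ mice (54 and 48 at an unadjusted p under 0.05). With the replicate number as a block, a fit that several libraries do not inform, limma called 0 of the 55 in either genotype and in the mean.

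Chromosome compaction and cohesion was the largest role group, with 10 genes, of which 9 rose in the mean of the genotypes and 6 in Cort-/- mice (median log2FC of the mean 0.99, range 0.29 to 2.57). Mki67 (chr7:135291513-135318299, minus strand, here and for other genes on GRCm39), the gene of the Ki-67 protein that coats mitotic chromosomes and is the common histological marker of proliferation, had the largest difference of the 55. Mki67 in Cort+/+ mice stood at 0.194, 0.158 and 0.139 RPKM in CL replicates 1, 2 and 3 and at 1.88, 1.95 and 0.819 RPKM in MCAO replicates 2, 3 and 4. Mki67 in Cort-/- mice stood at 0.187, 0.392 and 0.246 RPKM in CL replicates 1 to 3 and at 2.56, 1.79, 1.25, 2.80 and 2.34 RPKM in MCAO replicates 1 to 5. All MCAO values lay above all CL values, and the lowest MCAO value was that of Cort+/+ replicate 4. Mki67 rose by a log2FC of 2.56 ± 0.34 (SE) in Cort+/+ (adjusted p = 0.0471, limma) and 2.57 ± 0.30 in Cort-/- mice (adjusted p = 0.00579, limma), on 52 to 71 reads per CL library in Cort+/+ mice. The call in Cort+/+ mice was lost without any 1 of the 9 libraries counted above (adjusted p = 0.0542 to 0.0772, limma).

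Top2a (chr11:98883769-98915062, minus strand), the topoisomerase that untangles sister chromatids, followed it closely. Expression of Top2a was 0.253, 0.266 and 0.216 RPKM in the CL replicates 1 to 3 and 2.36, 2.56 and 1.14 RPKM in the MCAO replicates 2 to 4 of Cort+/+ mice. The Cort-/- libraries held 0.239, 0.605 and 0.290 RPKM of Top2a in CL replicates 1 to 3 and 3.21, 2.08, 1.48, 3.27 and 3.23 RPKM in MCAO replicates 1 to 5. Groups did not overlap in either genotype, and among CL libraries replicate 2 of the Cort-/- mice was the highest. The log2FC of Top2a was 2.54 ± 0.36 (SE) in Cort+/+ (adjusted p = 0.0584, limma), which missed the threshold, and 2.54 ± 0.32 in Cort-/- mice (adjusted p = 0.00698, limma).

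Smaller differences were found for the condensin subunits. Smc4, a core ATPase of condensin, averaged 1.68 ± 0.146 RPKM in CL and 2.45 ± 0.203 RPKM in MCAO libraries of Cort+/+ mice (SD, n = 3 each), and 1.48 ± 0.233 (SD, n = 3) and 2.43 ± 0.461 RPKM (SD, n = 5) in those of Cort-/- mice, and rose in the mean of the genotypes by 0.59 ± 0.11 (SE, adjusted p = 0.0106, limma). Its partner Smc2 did not pass. Values of Smc2 in Cort+/+ mice were 1.82, 2.10 and 1.77 RPKM in CL replicates 1, 2 and 3 and 2.58, 2.54 and 2.10 RPKM in MCAO replicates 2, 3 and 4. Values of Smc2 in Cort-/- mice were 2.27, 1.76 and 2.13 RPKM in CL replicates 1 to 3 and 2.33, 2.52, 2.25, 2.57 and 2.55 RPKM in MCAO replicates 1 to 5. The Cort+/+ groups were separated by a gap smaller than 0.01 RPKM between CL replicate 2 and MCAO replicate 4, and the Cort-/- groups overlapped, with a log2FC of 0.29 ± 0.07 (SE) in the mean of the genotypes (adjusted p = 0.0552, limma). Of the other condensin subunits, Ncapg had a log2FC of 1.30 (adjusted p = 0.00587, limma) and Ncaph of 0.94 (adjusted p = 0.0273, limma) in the same contrast. Cdca5, the cohesin protector sororin, rose by 1.79 (adjusted p = 0.00116, limma), whereas Sgo2a, a shugoshin of centromeric cohesion, rose by 0.58 (adjusted p = 0.0482, limma).

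Among cyclins, Cdk1 and the drivers of anaphase, all 7 genes rose in the mean of the genotypes and 6 in Cort-/- mice, with the highest median of the 8 role groups (1.58, range 1.04 to 2.23). Ube2c (chr2:164611768-164620742, plus strand), the ubiquitin-conjugating enzyme of the anaphase promoting complex, rose most. Ube2c in Cort+/+ mice stood at 0.148, 0.0890 and 0.0928 RPKM in CL replicates 1, 2 and 3 and at 0.973, 1.01 and 0.398 RPKM in MCAO replicates 2, 3 and 4. Ube2c in Cort-/- mice stood at 0.112, 0.289 and 0.0356 RPKM in CL replicates 1 to 3 and at 1.48, 1.02, 0.699, 1.16 and 1.40 RPKM in MCAO replicates 1 to 5. The MCAO and CL values did not overlap in either genotype. Its log2FC was 2.23 ± 0.27 (SE) in the mean of the genotypes (adjusted p = 0.00143, limma) and 2.01 ± 0.40 in Cort+/+ mice alone (adjusted p = 0.15, limma). Cyclin B1, encoded by Ccnb1 (chr13:100915153-100923116, minus strand), is the partner with which Cdk1 starts mitosis. Expression of Ccnb1 was 0.133, 0.105 and 0.0538 RPKM in the CL replicates 1 to 3 and 0.760, 1.08 and 0.441 RPKM in the MCAO replicates 2 to 4 of Cort+/+ mice. The Cort-/- libraries held 0.105, 0.157 and 0.0993 RPKM of Ccnb1 in CL replicates 1 to 3 and 1.41, 0.952, 0.547, 1.37 and 0.943 RPKM in MCAO replicates 1 to 5. Every MCAO value exceeded 0.4 RPKM and every CL value was under 0.2 RPKM. Ccnb1 rose by 2.20 ± 0.23 (SE) in the mean of the genotypes (adjusted p = 0.00088, limma).

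Cdk1 (chr10:69170976-69236595, minus strand), the kinase itself, had means of 0.0764 ± 0.0357 in CL and 0.648 ± 0.321 RPKM in MCAO libraries of Cort+/+ mice (SD, n = 3 each), and of 0.0896 ± 0.0623 (SD, n = 3) and 0.912 ± 0.350 RPKM (SD, n = 5) in Cort-/- mice. Its values did not overlap between hemispheres, with the lowest MCAO value (0.304 RPKM) in Cort+/+ replicate 4, and its log2FC in the mean of the genotypes was 2.19 ± 0.28 (SE, adjusted p = 0.00174, limma). Exons of 20 of the 55 genes overlap those of another measured gene on the opposite strand, and in 14 of these that gene had the higher mean RPKM, as for Cdk1 with Ank3, Kif20a with Cdc23, Spc25 with Nostrin, Ccna2 with Exosc9, Cdca3 with Usp5 and Prc1 with Rccd1. Reads of such pairs may not be fully separated, since the strand setting of the counting is not given in the sources used here. Cdc20, the activator of the anaphase promoting complex, rose by 1.31 ± 0.22 (adjusted p = 0.00615, limma), Cdca3, a trigger of mitotic entry, by 1.58, and the cyclins Ccnb2 and Ccna2 by 1.47 and 1.04.

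Of the 7 genes for mitotic kinases and the chromosomal passenger complex, 6 rose in the mean of the genotypes and 5 in Cort-/- mice (median 1.14, range 0.68 to 2.44). Pbk (chr14:66041114-66055276, plus strand), a kinase active in mitosis, had the smallest adjusted p of all 55 genes in either genotype. Values of Pbk in Cort+/+ mice were 0.128, 0.185 and 0.140 RPKM in CL replicates 1, 2 and 3 and 1.26, 1.67 and 0.845 RPKM in MCAO replicates 2, 3 and 4. Values of Pbk in Cort-/- mice were 0.219, 0.367 and 0.180 RPKM in CL replicates 1 to 3 and 2.60, 1.45, 1.45, 2.16 and 1.76 RPKM in MCAO replicates 1 to 5. No MCAO value was under 0.8 RPKM and no CL value above 0.4 RPKM. Pbk rose by 2.39 ± 0.28 (SE) in Cort+/+ (adjusted p = 0.0156, limma) and by 2.48 ± 0.25 in Cort-/- mice (adjusted p = 0.00304, limma), with only 8 to 11 reads in the CL libraries of Cort+/+ mice. Aurkb (chr11:68936467-68944764, plus strand) encodes Aurora B, the kinase of the chromosomal passenger complex, which corrects faulty attachments. Aurkb in Cort+/+ mice stood at 0.155, 0.0592 and 0.110 RPKM in CL replicates 1, 2 and 3 and at 0.796, 1.28 and 0.281 RPKM in MCAO replicates 2, 3 and 4. Aurkb in Cort-/- mice stood at 0.104, 0.292 and 0.0790 RPKM in CL replicates 1 to 3 and at 1.25, 0.824, 0.619, 1.20 and 1.04 RPKM in MCAO replicates 1 to 5. In Cort+/+ mice its MCAO libraries differed more than 4-fold among themselves without reaching the CL range, and the log2FC was 2.03 ± 0.29 (SE) in the mean of the genotypes (adjusted p = 0.00331, limma).

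The complex partners Birc5 (survivin) and Cdca8 (borealin) rose by 1.54 (adjusted p = 0.00441, limma) and 1.03 ± 0.19 (adjusted p = 0.0107, limma). Plk1 and Aurka, kinases of centrosome maturation and spindle poles, rose by 1.14 (adjusted p = 0.00415, limma) and 0.97 (adjusted p = 0.0273, limma). Melk, a kinase expressed in proliferating progenitors, was the exception of the group. Expression of Melk was 0.233, 0.245 and 0.463 RPKM in the CL replicates 1 to 3 and 0.546, 0.564 and 0.394 RPKM in the MCAO replicates 2 to 4 of Cort+/+ mice. The Cort-/- libraries held 0.236, 0.438 and 0.199 RPKM of Melk in CL replicates 1 to 3 and 0.715, 0.467, 0.307, 0.827 and 0.574 RPKM in MCAO replicates 1 to 5. Hemispheres overlapped in both genotypes, in Cort+/+ mice because CL replicate 3 exceeded MCAO replicate 4 and in Cort-/- mice because CL replicate 2 exceeded MCAO replicate 3. Its log2FC in the mean of the genotypes was 0.68 ± 0.22 (SE, adjusted p = 0.138, limma).

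Checkpoint genes were divided, with 2 of 4 called in the mean of the genotypes and in Cort-/- mice (median 0.74, range 0.21 to 1.76). Bub1, a kinase that recruits checkpoint proteins to kinetochores, rose by 1.76 (adjusted p = 0.00178, limma), and Ttk, the kinase Mps1 that starts checkpoint signaling, by 0.98 (adjusted p = 0.0164, limma). Mad2l1, the gene of the Mad2 protein that inhibits Cdc20, and Bub1b, the gene of BubR1 in the same inhibitory complex, did not pass. Values of Mad2l1 in Cort+/+ mice were 0.851, 0.972 and 1.06 RPKM in CL replicates 1, 2 and 3 and 1.21, 1.02 and 0.937 RPKM in MCAO replicates 2, 3 and 4. Values of Mad2l1 in Cort-/- mice were 0.917, 0.850 and 0.930 RPKM in CL replicates 1 to 3 and 1.15, 1.05, 1.14, 1.18 and 1.08 RPKM in MCAO replicates 1 to 5. Mad2l1 values overlapped in Cort+/+ mice and were separate in Cort-/- mice, where the differences were under 0.4 RPKM, and the log2FC in the mean of the genotypes was 0.21 ± 0.08 (SE, adjusted p = 0.227, limma).

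Bub1b varied widely within the Cort+/+ groups. Bub1b in Cort+/+ mice stood at 1.47, 1.25 and 0.402 RPKM in CL replicates 1, 2 and 3 and at 1.84, 1.72 and 0.590 RPKM in MCAO replicates 2, 3 and 4. Bub1b in Cort-/- mice stood at 0.783, 1.09 and 1.20 RPKM in CL replicates 1 to 3 and at 1.73, 1.34, 1.22, 2.12 and 1.76 RPKM in MCAO replicates 1 to 5. Both Cort+/+ groups held 1 library far under the others, CL replicate 3 and MCAO replicate 4, and these groups overlapped, whereas the Cort-/- groups were separate. The log2FC was 0.51 ± 0.29 (SE) in the mean of the genotypes (adjusted p = 0.472, limma).

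Kinetochore genes rose in 6 of 7 cases in the mean of the genotypes and in 5 of 7 in Cort-/- mice (median 1.02, range 0.57 to 1.62). Of the 4 subunits of the Ndc80 complex, which binds microtubule ends, Ndc80 and Spc25 rose by 1.62 and 1.61 (adjusted p = 0.0037 and 0.00357, limma) and Nuf2 by 1.02 (adjusted p = 0.00318, limma), whereas Spc24 had a log2FC of 0.57 ± 0.15 (SE, adjusted p = 0.0527, limma). Expression of Spc24 was 0.555, 0.481 and 0.481 RPKM in the CL replicates 1 to 3 and 0.694, 0.933 and 0.693 RPKM in the MCAO replicates 2 to 4 of Cort+/+ mice. The Cort-/- libraries held 0.470, 0.540 and 0.514 RPKM of Spc24 in CL replicates 1 to 3 and 0.976, 0.867, 0.497, 0.923 and 0.994 RPKM in MCAO replicates 1 to 5. Spc24 in Cort-/- MCAO replicate 3 lay within the CL range, and all other MCAO values lay above it. Cenpf, an outer kinetochore protein, rose by 1.42, Knl1, the scaffold for Bub1, by 0.97, and Cenpe, a kinetochore motor, by 0.91.

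All 9 mitotic kinesins rose in the mean of the genotypes and 8 in Cort-/- mice (median 1.02, range 0.72 to 1.93). Kif2c, which removes tubulin from microtubule ends at centromeres, rose most, from 0.0491 ± 0.0475 (SD, n = 3) to 0.435 ± 0.186 RPKM (SD, n = 3) in Cort+/+ and from 0.0597 ± 0.0151 (SD, n = 3) to 0.594 ± 0.251 RPKM (SD, n = 5) in Cort-/- hemispheres (log2FC 1.93 in the mean of the genotypes, adjusted p = 0.00199, limma). Kif11, which pushes spindle poles apart, rose by 1.30, Kif20a, a motor of the midzone, by 1.66, and Kif22, which pushes chromosome arms away from the poles, by 0.90 ± 0.15 (adjusted p = 0.00652, limma). Kif23, the motor of the centralspindlin complex, had the smallest change of the group, at 0.72 ± 0.12 (adjusted p = 0.0072, limma).

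Spindle assembly and bundling factors all rose, 8 of 8 in the mean of the genotypes and 7 in Cort-/- mice (median 1.30, range 1.06 to 2.01). Prc1 (chr7:79944168-79966011, plus strand), which bundles the antiparallel microtubules of the midzone, led the group. Values of Prc1 in Cort+/+ mice were 0.278, 0.330 and 0.192 RPKM in CL replicates 1, 2 and 3 and 1.49, 1.64 and 0.727 RPKM in MCAO replicates 2, 3 and 4. Values of Prc1 in Cort-/- mice were 0.246, 0.353 and 0.272 RPKM in CL replicates 1 to 3 and 2.09, 1.39, 1.17, 1.83 and 1.85 RPKM in MCAO replicates 1 to 5. Hemispheres did not overlap in either genotype. Prc1 rose by 2.01 ± 0.19 (SE) in the mean of the genotypes (adjusted p = 0.000447, limma). Tpx2, which activates Aurora A on the spindle, rose by 1.19 ± 0.13 (adjusted p = 0.00116, limma), Nusap1, a microtubule-stabilizing protein, by 1.64 and Aspm, a protein of the spindle poles, by 1.06. Troap, a spindle-associated protein, was the gene of this group not called in Cort-/- mice (log2FC 1.06, adjusted p = 0.0923, limma), though it rose in the mean of the genotypes (1.22 ± 0.22, adjusted p = 0.00804, limma).

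The 3 cytokinesis genes differed widely. Ect2, which is needed to form the contractile ring, rose by 1.21 (adjusted p = 0.0014, limma). Racgap1, the centralspindlin partner of Kif23, was already at several RPKM in CL hemispheres. Racgap1 in Cort+/+ mice stood at 4.06, 3.23 and 3.72 RPKM in CL replicates 1, 2 and 3 and at 4.52, 5.47 and 4.24 RPKM in MCAO replicates 2, 3 and 4. Racgap1 in Cort-/- mice stood at 3.73, 3.91 and 3.51 RPKM in CL replicates 1 to 3 and at 5.76, 5.24, 4.64, 5.59 and 5.46 RPKM in MCAO replicates 1 to 5. The hemispheres did not overlap in either genotype, and Racgap1 rose by 0.43 ± 0.07 (SE) in the mean of the genotypes (adjusted p = 0.00651, limma). Anln (chr9:22242402-22300501, minus strand), the actin-binding anillin of the contractile ring, had the highest level of the 55. Expression of Anln was 13.9, 12.4 and 12.1 RPKM in the CL replicates 1 to 3 and 11.9, 12.0 and 11.6 RPKM in the MCAO replicates 2 to 4 of Cort+/+ mice. The Cort-/- libraries held 13.1, 11.7 and 11.1 RPKM of Anln in CL replicates 1 to 3 and 11.7, 11.8, 11.4, 13.7 and 11.6 RPKM in MCAO replicates 1 to 5. Its CL and MCAO values overlapped in both genotypes, with a log2FC of −0.05 ± 0.05 (SE) in the mean of the genotypes (adjusted p = 0.737, limma). Anln is known to be expressed also by myelinating oligodendrocytes, and of the 8 oligodendrocyte markers none was called by limma in the same contrast (3 at an unadjusted p under 0.05, median log2FC −0.01).

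**Figure D3:**
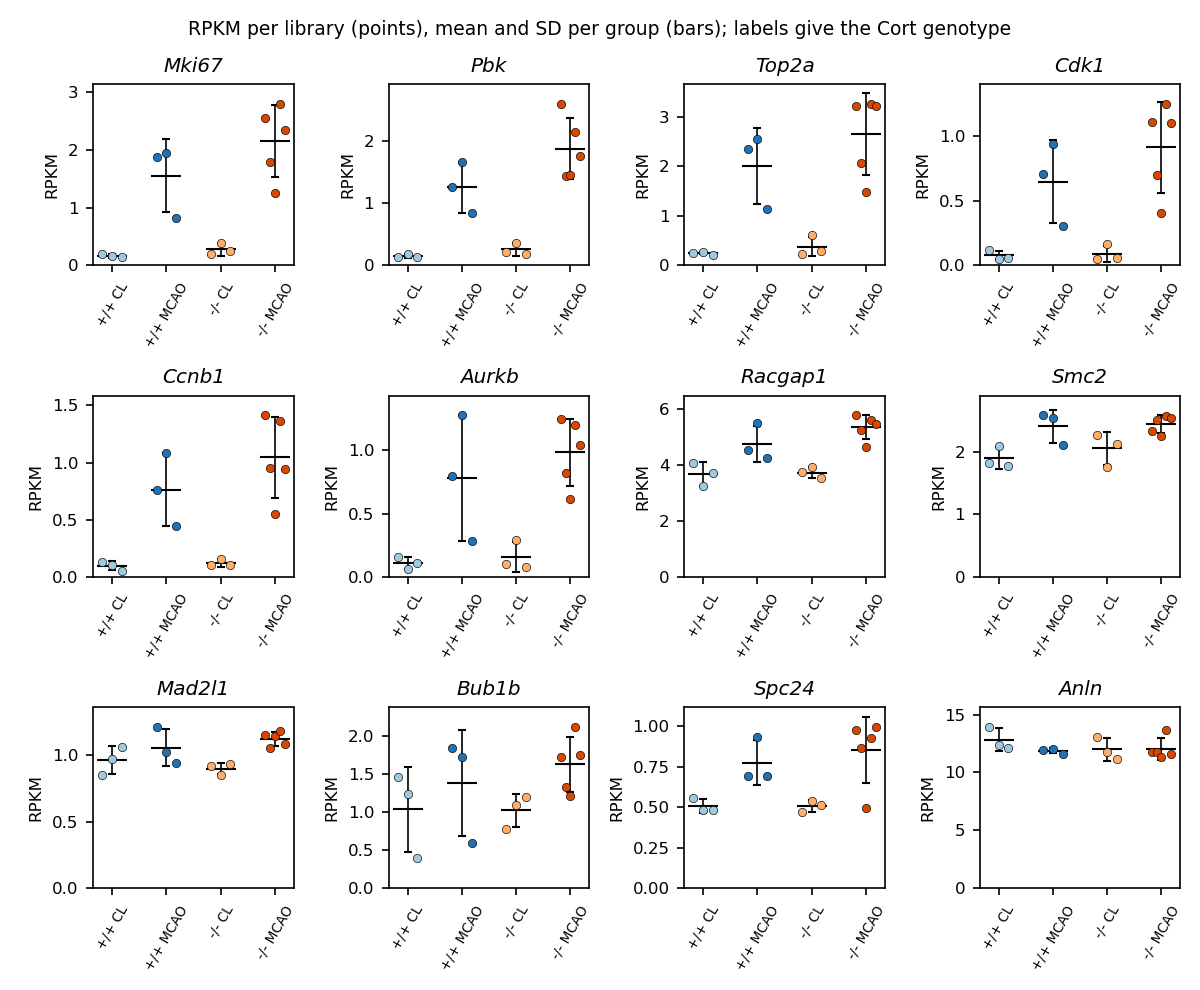
Expression (RPKM, linear axis from 0) of 12 mitosis and spindle genes by genotype and hemisphere, with a point for each library, a horizontal line for the group mean and a vertical bar for ± SD (n = 3, and n = 5 for Cort-/- MCAO). Mki67, Top2a and the other genes with large changes show separate CL and MCAO values within each genotype, whereas the hemispheres overlap for Anln, at 11.1 to 13.9 RPKM.

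Genotypes were compared next, in the non-ischemic hemisphere first. In CL libraries, none of the 55 genes differed between Cort-/- and Cort+/+ mice by limma (0 at an unadjusted p under 0.05 and 0 by limma voom on the recovered reads), where 0.0152% of all genes tested were called. Log2FC values ranged from −0.18 to 0.48 with a median of 0.08, and 36 of 55 were positive. The smallest unadjusted p were those of Pbk (0.47 ± 0.28 SE), Troap (0.46 ± 0.32) and Kif23 (0.26 ± 0.18). CL replicate 2 of the Cort-/- mice was the highest of its 3 libraries in 38 of the 55 genes, against 37.8% of genes whose mean reached 0.1 RPKM.

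In MCAO hemispheres, 54 of the 55 genes were on average higher in Cort-/- than in Cort+/+ mice, Smc4 being the exception, with a median log2FC of 0.27 (range −0.03 to 0.56). None was called by limma, where 0.0174% of all genes tested were, and none by limma voom, while 2 had an unadjusted p under 0.05. These were Tpx2 (0.43 ± 0.18 SE) and Pbk (0.56 ± 0.25 SE), followed by Cdc20 (0.54 ± 0.29 SE). Values of Tpx2 in Cort+/+ mice were 0.556, 0.477 and 0.620 RPKM in CL replicates 1, 2 and 3 and 1.45, 1.48 and 0.895 RPKM in MCAO replicates 2, 3 and 4. Values of Tpx2 in Cort-/- mice were 0.598, 0.613 and 0.672 RPKM in CL replicates 1 to 3 and 2.06, 1.58, 1.27, 1.79 and 1.99 RPKM in MCAO replicates 1 to 5. Tpx2 in Cort-/- MCAO replicate 3 was lower than in Cort+/+ MCAO replicates 2 and 3, so the genotypes overlapped, as they did for all 55 genes. The median rested on single libraries, at 0.05 (38 of 55 positive) without Cort+/+ MCAO replicate 4, the library with the lowest values in all 55 genes, at 0.38 without Cort-/- MCAO replicate 3 and at 0.42 without Cort+/+ MCAO replicate 3.

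The difference between genotypes in the response itself was tested as an interaction in the same limma model. None of the 55 genes was called (0 at an unadjusted p under 0.05 and 0 by limma voom), where 0.00217% of all genes tested were. The median interaction was 0.21 on the log2 scale (range −0.32 to 0.59), and 50 of 55 genes had the larger log2FC in Cort-/- mice. With Cort+/+ MCAO replicate 4 left out the median was −0.013 and 27 of 55 genes had the larger log2FC in Cort-/- mice, so the direction rested on that library. It was 0.38 without Cort+/+ MCAO replicate 3, 0.34 without Cort-/- MCAO replicate 3, and 0.12 and 0.13 without Cort-/- MCAO replicates 1 and 4. The smallest unadjusted p were those of Ttk (0.59 ± 0.40 SE), Cdca8 (0.50 ± 0.39 SE) and Kif22 (0.39 ± 0.30 SE). The larger count of genes called in Cort-/- mice, 41 against 2, was not accompanied by a called difference in any gene, and the Cort-/- comparison held 5 MCAO libraries against 3. Over the 55 genes the log2FC values were much alike in the genotypes (Pearson r 0.96, given as a description, since genes of 1 library share its depth and its cells).

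**Figure D4:**
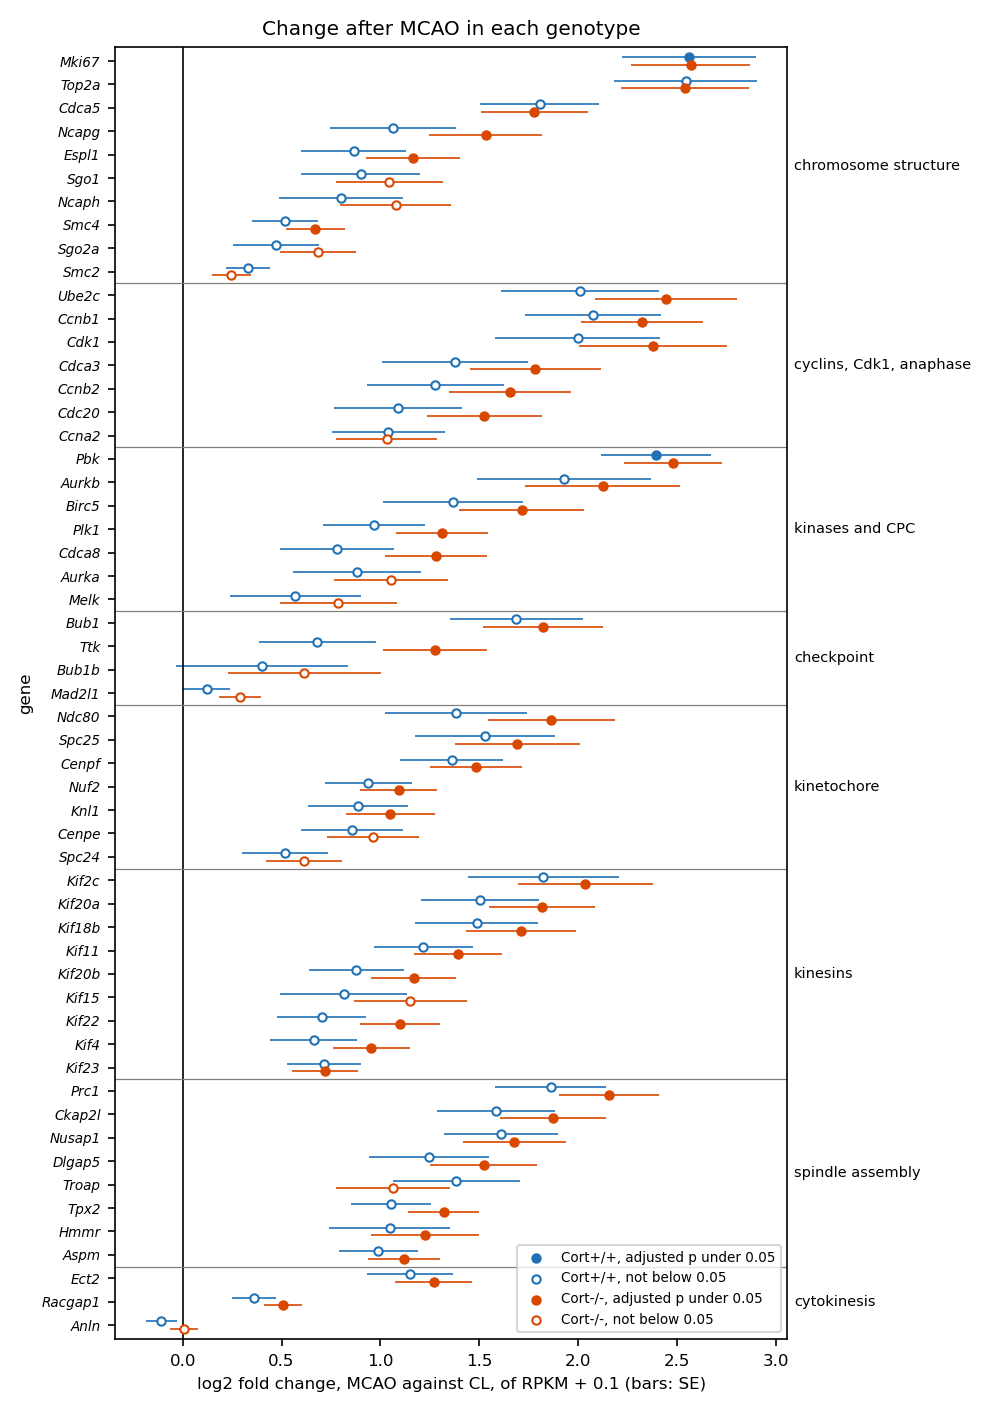
Log2FC of MCAO against CL (limma, log2(RPKM + 0.1), horizontal axis) of each of the 55 genes (vertical axis, by role) in Cort+/+ (blue) and Cort-/- mice (orange), with bars for ± SE and filled points for an adjusted p under 0.05. The Cort-/- point lies to the right of the Cort+/+ point for 50 genes (27 without Cort+/+ MCAO replicate 4), by a median interaction of 0.21 over all 55, and 41 Cort-/- points but 2 Cort+/+ points are filled.

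Other cell cycle lists, also chosen with earlier results of these data known, were read in the same contrast, the mean of the genotypes by limma. Of 34 other G2/M and spindle genes 14 rose (median 0.55), led by Pimreg (2.20 ± 0.24 SE), Gtse1 (1.50 ± 0.19) and Iqgap3 (1.44 ± 0.20). Of 34 genes of DNA replication and S phase 15 rose (median 0.54), led by Tk1 (2.12 ± 0.32), the thymidine kinase, Uhrf1 (1.67 ± 0.28), which maintains DNA methylation, and Rrm2 (1.45 ± 0.15), the regulated subunit of ribonucleotide reductase. None of these lists held a gene that fell. Among the 8 G1 cyclins and their kinases 2 rose, Ccnd1 by 0.71 ± 0.10 and Ccnd3 by 0.29 ± 0.07, and among the 7 CDK inhibitors 1 rose, Cdkn2c by 1.16 ± 0.17.

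Regulators were largely not called. Of the 21 genes for E2F, RB, MuvB, NF-Y and FOXM1 factors 3 rose (median 0.03), namely E2f8, a repressor of E2F targets (1.25 ± 0.24), Foxm1, an activator of G2/M genes (1.13 ± 0.18), and Rbl1, the pocket protein p107 (0.80 ± 0.19). The 14 genes of the anaphase promoting complex list, which are 12 subunits, the coactivator Fzr1 and the ubiquitin-conjugating enzyme Ube2s, gave 0 calls by limma (2 at an unadjusted p under 0.05), with a median of 0.02 and a range of −0.04 to 0.12.

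**Figure D5:**
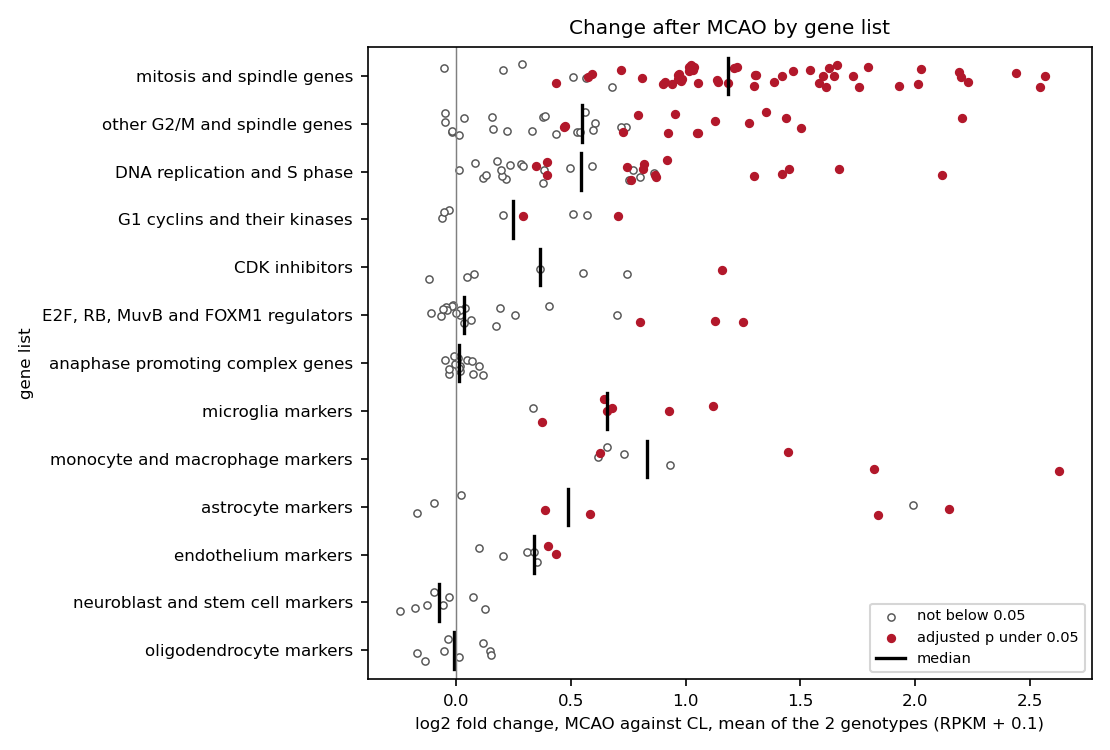
Log2FC in the mean of the genotypes (limma, log2(RPKM + 0.1), horizontal axis) of every gene of the mitosis and spindle genes, the other cell cycle lists and 6 cell type marker lists (vertical axis), with filled points for an adjusted p under 0.05 and a line for the median of each list. Mitosis and spindle genes have a median of 1.19, microglial markers of 0.66 and anaphase promoting complex genes of 0.02.

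Cell type markers moved with these genes. Of 7 microglial markers 6 rose in the mean of the genotypes (median 0.66), and their summed expression was 95.2 to 104 RPKM in Cort+/+ CL, 126 to 197 in Cort+/+ MCAO, 95.9 to 112 in Cort-/- CL and 144 to 216 RPKM in Cort-/- MCAO libraries. The libraries with the lowest and the highest sums within each MCAO group were those that held the lowest and the highest sums of the mitosis and spindle genes, Cort+/+ replicates 4 and 3 and Cort-/- replicates 3 and 1. This was not particular to microglia. The same libraries held the extremes of the monocyte and macrophage sums, and those of the astrocyte sums except that the highest Cort-/- library was replicate 4. Relative to the microglial sum, the mitosis and spindle genes without Anln stood at 0.197 to 0.222 in CL libraries, at 0.262 to 0.300 in Cort+/+ MCAO and at 0.279 to 0.344 in Cort-/- MCAO libraries, so the ratio to this sum was higher in every MCAO library than in any CL library. That separation did not hold for the monocyte and macrophage sum, nor for the microglial sum with Anln included. Cort+/+ CL replicate 3 held 19.5 RPKM of these genes without Anln and 10.6 RPKM of monocyte and macrophage markers. In Cort-/- MCAO replicate 1 these were 72.7 and 67.6 RPKM. With Anln, Cort+/+ CL replicate 1 held 37.1 RPKM against 104 RPKM of microglial markers. In Cort+/+ MCAO replicate 2 these were 64.5 and 185 RPKM. Of 8 monocyte and macrophage markers 4 rose (median 0.83), with sums of 10.6 to 22.4 RPKM in CL, 19.9 to 39.2 in Cort+/+ MCAO and 28.3 to 67.6 RPKM in Cort-/- MCAO libraries, and of 8 astrocyte markers 4 (median 0.49). The part of these cells in the results was not tested.

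Markers of other cells moved less. Of 7 endothelial markers 2 rose (median 0.34), whereas limma called none among 6 markers of oligodendrocyte precursors (2 at an unadjusted p under 0.05, median 0.12), 8 of neuroblasts and neural stem cells (0 at that level, median −0.07) and 6 of neutrophils (0 at that level, median −0.01). Summed neutrophil markers were 2.36 to 9.50 RPKM in CL and 2.30 to 15.6 RPKM in MCAO libraries, and summed lymphocyte markers 4.63 to 6.04 and 2.37 to 4.90 RPKM. The lower lymphocyte sum was not shared by the list, where 7 markers had a positive and 2 a negative log2FC (median 0.10). Cd4, which held the most reads of these markers, is listed by the paper as lower after MCAO in both genotypes. Within these lists Ly6g was at 0 reads in 7 of 14 libraries and never above 2, and the T-cell receptor subunits Cd3d, Cd3e and Cd3g were at 0 in 9, 6 and 6 libraries and never above 5 reads, whereas S100a8, S100a9, Retnlg, Trac, Cd79a and Cd4 had reads in every library, up to 106, 180, 41, 32, 23 and 523. Among 9 lymphocyte and 7 neuronal markers 1 each fell and none rose, among 6 pericyte and smooth muscle markers 1 rose, and the 6 markers of ependyma and 5 of erythroid cells gave no call by limma (1 and 0 at an unadjusted p under 0.05).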

How the data were processed

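Poly(A) RNA of CL and MCAO brain hemispheres was made into stranded libraries. The authors used reanalyzerGSE v3.0.0 to align reads to GRCm39 and to count them over GENCODE M28, and deposited RPKM values per library, replicates not pooled. Gene lengths, scaling and strand setting of the counting are not given in the sources used here. Whole reads were recovered from all 495656 values above 0 (100%, tolerance 0.01 reads) and served for depth and for limma voom only, and counting error is largest for genes with few reads. Gene positions are GRCm39 (GENCODE M39).

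Because the values are RPKM, limma replaced the count test of the study. Genes above 0 in at least 2 libraries (46102 of 46904) were fitted as log2(RPKM + 0.1), which understates changes of low genes, in 1 model of the 4 groups with moderated variances and trend, and p-values were adjusted over all genes (Benjamini-Hochberg). The paper describes the replicates of the CL and of the MCAO hemispheres as independent biological replicates. The groups were taken from the labels. The 55 genes, their roles, the other lists and the rule for named genes were chosen with earlier results of these data known.

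Genes named are the 8 with the largest and 6 with the smallest log2FC in the mean of the genotypes, the 4 with the highest RPKM, those called in Cort+/+ mice or not called in the mean, the 3 of smallest p in each genotype contrast and examples of each role. Alternatives were pseudocounts of 1 and 0.01 RPKM, other filters, scalings (TPM, median of ratios, quantile) and weights, fits of only the groups compared, a block for the replicate number, voom and leaving out each of the 14 libraries. The fits were tested on simulated data.

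Tools were R 4.3.3, limma 3.58.1, Python 3.11.15, numpy 2.4.6, pandas 2.3.3, scipy 1.17.1 and matplotlib 3.10.9.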

Additional observations from a re-analysis of the deposited data

Results flagged for a closer look

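Among the MCAO libraries of Cort-/- mice, the only group with enough samples for the check (n = 5), 2 values among the genes named above stood apart from the others of their group. Spc24 had its lowest value, 0.497 RPKM, in replicate 3, where the next was 0.867 RPKM. Anln had its highest value, 13.7 RPKM, in replicate 4, where the next was 11.8 RPKM. A single value stands this far apart by chance in about 1 in 20 groups, so with this many genes named some such values would arise by chance.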

How the results depend on the processing

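The median interaction (0.21), whose alternatives were added after seeing the data, reversed to −0.013 without Cort+/+ MCAO replicate 4 (range with 1 library left out −0.013 to 0.38) and to −0.18 with the replicate number as a block, and was 0.11 to 0.22 under the others. These 2 reversals are not independent, since Cort+/+ MCAO replicate 4 has no CL library of its number and does not inform the change in the block fit. No other value given here changed direction, and the 3 genotype contrasts (CL, MCAO, interaction) gave 0 called genes under each. Calls in Cort+/+ mice (2) were 0 with a pseudocount of 1 RPKM, 5 with 0.01 RPKM, 5 with genes of a mean of at least 0.5 RPKM only, 4 after quantile normalization, 0 when fitted with the groups compared only, 12 by limma voom, and 1 to 20 with 1 library left out. Calls in Cort-/- mice (41) were 26 with the RPKM filter, 8 with the groups compared only and 10 to 48 with 1 library left out. In the mean of the genotypes (49) they were 28 with the RPKM filter and 44 to 51 with 1 library left out. The filter left 31 of the 55 genes for testing. Median log2FC in Cort+/+ mice (1.05) was 0.38 and 1.43 with pseudocounts of 1 and 0.01 RPKM, 1.37 on TPM, 1.48 by voom and 0.94 to 1.27 with 1 library left out. In Cort-/- mice (1.28) it was 0.50, 1.70, 1.55, 1.76 and 1.20 to 1.42 in that order. The median of Cort-/- against Cort+/+ in MCAO (0.27) was 0.05 to 0.42 with 1 library left out. Smc2 and Spc24 passed the threshold in the mean of the genotypes under 7 alternatives each.

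Deviations from the group means were correlated between CL and MCAO libraries of the same replicate number. The values were −0.06, −0.24 and 0.03 in Cort-/- and 0.32 and −0.14 in Cort+/+ mice. They cannot decide whether such libraries came from the same mouse, since the groups are small and only the MCAO hemisphere is ischemic. With the number as a block, 0 of the 55 genes were called in Cort+/+ mice, in Cort-/- mice and in the mean, where the median log2FC was 1.30 in Cort+/+ mice. For Mki67 the mean log2FC was then 2.70 (adjusted p = 0.13, limma).

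Counting error is large where a library held few reads, as for Pbk with 8 to 11 reads in the CL libraries of Cort+/+ mice, and the folds of genes with low RPKM rest on the pseudocount. Causes of these shifts were not tested.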
